A study of Mus musculus with 9 samples.

Results

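Messenger RNA of 10 inflammatory and homeostatic cytokines was followed in the ageing lacrimal gland of the mouse. The members were Il1a, Il1b, Il18 and Il33 of the interleukin 1 family, Il6 and Tnf, the lymphocyte survival factors Il7 and Il15, and the growth factors Tgfb1 and Csf1. They were taken by gene name from the table of counts, as 10 of its 54232 genes. No rule on their values was used, but earlier results of these data were known when the members were chosen. All glands came from female C57BL/6J mice fed without restriction, and the ages were 2 months (8W in the titles), 12 months and 24 months, with 3 libraries each. No allele, agent or treatment other than age separated the groups, and all of them shared the strain, the sex, the diet and the light cycle. The labels do not state whether a library is 1 mouse, 1 gland or a pool, so p-values measure the spread between these libraries, which may be in part technical. The title of the series names lymphoid structures in the aged gland, and the question put to these genes is how their RNA differs between the 3 ages.

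The lacrimal gland makes the aqueous layer of tears, and cytokines made by its epithelium, stroma and resident leukocytes steer which immune cells stay in it. IL-1α and IL-33 are held in the nucleus of barrier cells and act as alarm signals when a cell is damaged. IL-1β and IL-18 are made as inactive precursors, cleaved by caspase-1 in an inflammasome and released through pores in the membrane. TNF and IL-6 are early products of activated macrophages and stroma and act through NF-κB and STAT3. IL-7 and IL-15 come mostly from stroma, epithelium and myeloid cells and keep lymphocytes alive through STAT5. TGF-β1 is secreted in a latent form that has to be released before it can signal through SMAD proteins, and CSF1 keeps macrophages alive through its receptor CSF1R.

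Promoter windows of RefSeq (GRCm38.p6, 250 bases before to 50 after a gene's start) were available for 8 of the 10 members, and 4 of them are printed. Those of Csf1 and Tgfb1 are shown because both genes passed the tests that follow, and those of Il6 and Tnf because they are the archetypal inflammatory genes among the members. Each is read 5′ to 3′ on the gene's own strand, and the capitals mark an NF-κB match or a TATAAA match.
Csf1 promoter, chr3:107760420-107760719, minus strand: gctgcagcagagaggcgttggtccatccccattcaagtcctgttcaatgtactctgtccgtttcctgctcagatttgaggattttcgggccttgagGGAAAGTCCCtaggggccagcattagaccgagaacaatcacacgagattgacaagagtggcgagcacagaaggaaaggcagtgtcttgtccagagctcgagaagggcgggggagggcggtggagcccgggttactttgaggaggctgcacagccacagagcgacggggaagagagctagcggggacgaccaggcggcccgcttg
Tgfb1 promoter, chr7:25686752-25687051, plus strand: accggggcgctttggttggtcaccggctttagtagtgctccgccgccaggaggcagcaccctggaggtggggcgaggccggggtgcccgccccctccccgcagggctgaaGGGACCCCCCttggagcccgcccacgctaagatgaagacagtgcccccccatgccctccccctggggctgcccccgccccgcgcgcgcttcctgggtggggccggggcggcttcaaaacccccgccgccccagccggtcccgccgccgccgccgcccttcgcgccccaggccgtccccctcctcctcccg
Il6 promoter, chr5:30012864-30013163, plus strand: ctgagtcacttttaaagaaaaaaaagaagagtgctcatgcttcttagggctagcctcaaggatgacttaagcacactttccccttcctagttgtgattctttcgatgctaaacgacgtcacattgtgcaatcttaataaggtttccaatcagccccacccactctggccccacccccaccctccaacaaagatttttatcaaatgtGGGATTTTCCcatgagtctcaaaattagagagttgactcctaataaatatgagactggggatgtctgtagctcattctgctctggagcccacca
Tnf promoter, chr17:35201958-35202257, minus strand: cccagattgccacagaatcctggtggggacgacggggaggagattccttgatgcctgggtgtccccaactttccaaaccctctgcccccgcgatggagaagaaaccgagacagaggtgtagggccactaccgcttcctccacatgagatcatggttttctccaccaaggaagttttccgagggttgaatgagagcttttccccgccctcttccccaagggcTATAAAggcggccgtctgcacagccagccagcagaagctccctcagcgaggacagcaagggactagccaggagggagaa
An NF-κB match stood in the windows of 3 of the 8 members, from -154 to -145 in Csf1, from -140 to -131 in Tgfb1 and from -44 to -35 in Il6, counted from the start of the gene. Of all 32851 windows 8.46% held one. The motif TGANTCA of AP-1 was in 2 of 8 members, Il1a and Il6, and in 7.81% of all windows. The STAT motif TTCNNNGAA was in 0 of 8 members and in 8.3% of all windows. The GC box GGGCGG was in 3 of 8 members, Csf1, Tgfb1 and Tnf, and in 35.7% of all windows, while TATAAA was in 5 of 8 and in 13.6%. Both strands were searched, and none of the printed matches of 2 motifs overlapped each other. The Tgfb1 window was the richest in G and C of the 4, at 77%, with 6 GC boxes and 30 CpG pairs. The Il6 window had 44% G and C, that of Tnf 58% and that of Csf1 58.7%, against a median of 52.7% over all windows. These matches describe letters only and say nothing of which factor binds there.

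Each library held 40516863 to 42573877 counts, and 14944 genes had enough counts for a test. Markers of lacrimal acinar cells summed to between 2710 and 3400 CPM (counts per 1000000, scaled by TMM) in all 9 libraries. Libraries also differed in tissue that was not labelled. Salivary gland transcripts, 6 genes summed, lay between 0.573 and 845 CPM at 2 months, between 2.07 and 379 CPM at 12 months and between 1.17 and 252 CPM at 24 months. Skeletal muscle transcripts reached 26.2 and 50.1 CPM in 12-month replicates 1 and 3 and at most 1.1 CPM elsewhere. The 3 libraries with the most salivary transcripts were 2-month replicate 3, 12-month replicate 2 and 24-month replicate 2. Values without those 3, which leaves 2 libraries an age, are given with the results.

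All of the cytokines were rare RNAs. Csf1 and Tgfb1 were the most abundant and had 180 to 678 counts in a library, while the 8 others had 0 to 146. Per length, the mean over all 9 libraries was 1.9 TPM (transcripts per 1000000, over the merged exon length) for Csf1 and 1.58 TPM for Tgfb1. Csf1 was above Tgfb1 in 7 of 9 libraries, but over the longest transcript the order turned, with 2.17 TPM for Csf1 and 2.79 TPM for Tgfb1. Il33 and Il15 came next, both with 0.625 TPM, and neither stood above the other in more than 5 of 9 libraries. Tnf followed with 0.527 TPM and Il18 with 0.493 TPM, again with no steady order between them. Il1b with 0.166 TPM, Il1a with 0.139 TPM and Il7 with 0.108 TPM formed a lower step, and Il6 with 0.00839 TPM was the lowest in every library. Tgfb1 was above Il33 in 9 of 9 libraries, Il18 above Il1b in 8 of 9 and Il7 above Il6 in 9 of 9, while the other neighbours in this order changed places in at least 2 libraries.

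**Figure D1:**
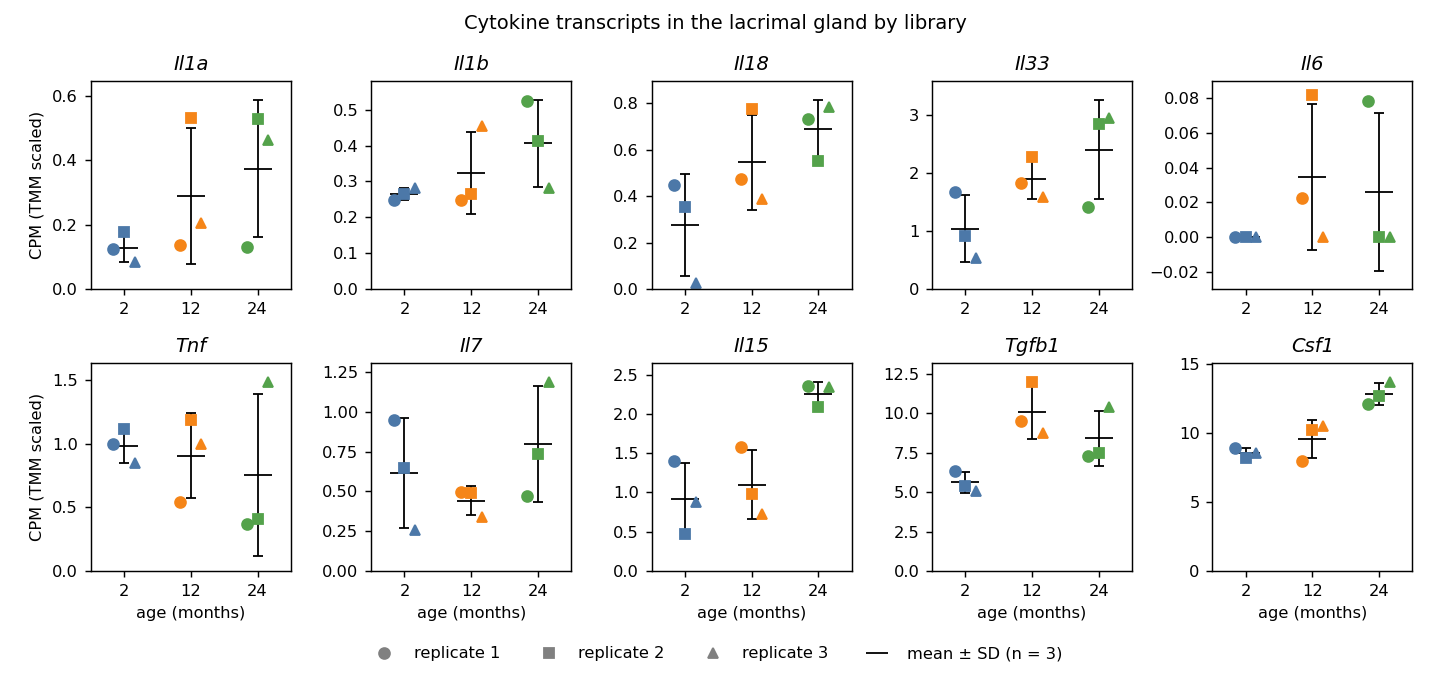
Level of the 10 cytokine genes in CPM (vertical axes, a scale of its own for each gene) at 2, 12 and 24 months, with 1 point per library and the mean ± SD of 3 libraries as a bar. Csf1 and Il15 at 24 months lie above all 2-month and 12-month libraries, Tgfb1 at 12 and 24 months lies above all 2-month libraries, and the points of Tnf, Il7 and Il1b overlap between ages.

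Of the 9 members that were tested (all but Il6), 3 were called higher at 24 than at 2 months: Csf1, Il15 and Tgfb1. Over all genes 9.82% were called higher and 7.56% lower in that comparison (17.4% in all) by edgeR's quasi-likelihood test at an adjusted p under 0.05. At 12 against 2 months 1 member, Tgfb1, was called higher, against 5.41% of all genes called higher and 2.52% lower (7.93% in all). At 24 against 12 months 0 of 9 were called by edgeR, against 4.39% of all genes (2.79% higher and 1.6% lower). In that comparison 2 members, Il15 and Csf1, had an unadjusted p under 0.05, while DESeq2 called 1, Csf1, and limma voom 0. Across the 3 ages together 2 members were called, Csf1 (adjusted p = 0.0165) and Tgfb1 (adjusted p = 0.0171, both edgeR), against 17% of all genes. No member was called lower in any comparison. The median log2 fold change of the 9 was 0.60 at 24 against 2 months, 0.28 at 12 against 2 months and 0.34 at 24 against 12 months, beside medians over all genes of 0.01, 0.01 and -0.02. The first 2 of these comparisons share the 2-month libraries and are not independent of each other. Without the 3 libraries richest in salivary transcripts 0 members were called in any comparison.

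Csf1, the growth factor of macrophages (ENSMUSG00000014599, chromosome 3, 107741048 to 107760469, minus strand, GRCm38), had the steadiest values. The 2-month libraries held 358, 278 and 302 counts, those of 12 months 352, 498 and 463, and those of 24 months 461, 554 and 678. Scaled, these were 8.92, 8.16 and 8.55 CPM in the 2-month, 7.95, 10.2 and 10.5 CPM in the 12-month, and 12.1, 12.7 and 13.7 CPM in the 24-month libraries. All 24-month libraries stood above every younger one, while 12-month replicate 1 lay below all 2-month libraries. The mean was 12.8 ± 0.795 CPM at 24 months against 8.54 ± 0.379 CPM at 2 months (SD, n = 3 each), 1.5-fold higher (log2 0.58 ± 0.126 SE, edgeR adjusted p = 0.00963). At 12 months it was 9.55 ± 1.4 CPM, which was not called against 2 months (log2 0.16, 95% interval -0.12 to 0.44, edgeR adjusted p = 0.498). At 24 against 12 months Csf1 was 1.34-fold higher but missed the threshold (log2 0.42 ± 0.125, interval 0.15 to 0.70, edgeR adjusted p = 0.0811), and DESeq2 called it with an adjusted p of 0.044. The call at 24 against 2 months held when any 1 of the 9 libraries was left out, with edgeR adjusted p between 0.00663 and 0.0439. Without the 3 libraries richest in salivary transcripts the log2 fold change was 0.60 with an adjusted p of 0.112.

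The receptor of CSF1 was higher at 24 months as well. Csf1r had 464, 562 and 994 counts at 24 months against 336, 151 and 286 at 2 months, with 388, 454 and 381 in the 12-month libraries. The groups did not overlap, and Csf1r rose at 24 against 2 months by a log2 fold change of 1.11 (SE 0.232, edgeR adjusted p = 0.00839). It was also called without the 3 salivary-rich libraries (log2 1.34, adjusted p = 0.0484). Il34, the other ligand of CSF1R, was not called, with 3.19 ± 0.692 CPM at 24 months against 3.55 ± 0.722 CPM at 2 months, and with 4.77 ± 0.243 CPM at 12 months. Csf1 per Csf1r count was 1.32 ± 0.451 at 2 months, 1.07 ± 0.155 at 12 months and 0.887 ± 0.178 at 24 months. The summed level of 12 macrophage and monocyte markers was 69.4 to 102 CPM at 2 months, 194 to 259 CPM at 12 months and 263 to 371 CPM at 24 months. Lyz2 alone had means of 20.7, 106 and 132 CPM at 2, 12 and 24 months. All 12 markers were detected, and 9 of 12 rose at 24 against 2 months and 5 of 12 at 12 against 2 months (9.82 and 5.41% of all genes). Mertk went the other way at 12 against 2 months (log2 -0.70, edgeR adjusted p = 0.106). The 7 fibroblast markers, also all detected, summed to 67.4 to 118, 77.3 to 91.4 and 122 to 191 CPM at 2, 12 and 24 months. Dcn alone had means of 52.1, 49.8 and 82.4 CPM. The part of either cell type in the Csf1 values was not tested. In RNA of a whole gland, a change in the number of cells of a type and a change in RNA per cell cannot be told apart. The same holds for the other members.

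Tgfb1, a cytokine that restrains T cells and drives matrix production (ENSMUSG00000002603, chromosome 7, 25687002 to 25705077, plus strand), was the only member called at 12 against 2 months. It had 255, 184 and 180 counts in the 2-month, 421, 588 and 385 in the 12-month, and 279, 327 and 518 in the 24-month libraries. The levels were 6.35, 5.4 and 5.09 CPM at 2 months, 9.51, 12.0 and 8.75 CPM at 12 months, and 7.31, 7.49 and 10.4 CPM at 24 months. Every 12-month and every 24-month library was above all 2-month libraries, and the 12-month and 24-month libraries overlapped. The mean was 10.1 ± 1.71 CPM at 12 months against 5.62 ± 0.657 CPM at 2 months, 1.8-fold higher (log2 0.84 ± 0.176 SE, edgeR adjusted p = 0.0131). At 24 months it was 8.41 ± 1.75 CPM, 1.5-fold above 2 months (log2 0.58 ± 0.177, edgeR adjusted p = 0.0403). The difference of 24 against 12 months was a log2 fold change of -0.26 (interval -0.63 to 0.11, edgeR adjusted p = 0.458).

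Both calls of Tgfb1 could be lost by leaving out 1 library. With 2-month replicate 2 left out the one at 12 against 2 months had an adjusted p of 0.0641, with replicate 3 of that age 0.0601, and with 12-month replicate 2 it was 0.0774. At 24 against 2 months the adjusted p was 0.123 and 0.13 with 2-month replicates 2 and 3 left out, 0.0541 with 12-month replicate 1, and 0.0503 and 0.163 with 24-month replicates 2 and 3, each from edgeR. The call was also lost with limma voom (adjusted p = 0.0589). Without the 3 salivary-rich libraries the adjusted p was 0.274 at 12 against 2 months (log2 0.63) and 0.157 at 24 against 2 months. Ptprc, the leukocyte gene CD45, had its means in the same order of ages, with 2.03 ± 1.22 CPM at 2 months, 12.9 ± 7.56 CPM at 12 months and 6.1 ± 1.78 CPM at 24 months. Tgfb1 per Ptprc count was 3.63 ± 2.38, 1.07 ± 0.758 and 1.41 ± 0.236 at 2, 12 and 24 months, and the part of leukocyte number in the Tgfb1 values was not tested.

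Il15, which keeps natural killer cells and memory CD8 T cells alive (ENSMUSG00000031712, chromosome 8, 82331632 to 82403222, minus strand), was higher in the oldest glands. The 2-month libraries held 56, 16 and 31 counts, those of 12 months 70, 48 and 32, and those of 24 months 90, 91 and 116. The levels were 1.4, 0.47 and 0.877 CPM at 2 months, 1.58, 0.981 and 0.727 CPM at 12 months, and 2.36, 2.09 and 2.34 CPM at 24 months. The 24-month libraries lay close together and above all others, and the younger groups overlapped each other. The coefficient of variation was 50.8% at 2 months, 39.8% at 12 months and 6.68% at 24 months. The mean was 2.26 ± 0.151 CPM at 24 months against 0.914 ± 0.464 CPM at 2 months, 2.45-fold higher (log2 1.29 ± 0.396 SE, edgeR adjusted p = 0.0415). Against the 12-month mean of 1.1 ± 0.438 CPM the 24-month level was 2.06-fold higher and missed the threshold (log2 1.04 ± 0.388, interval 0.20 to 1.89, edgeR adjusted p = 0.16). The log2 value for 12 against 2 months was 0.25 (interval -0.62 to 1.12, edgeR adjusted p = 0.765).

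The call of Il15 at 24 against 2 months was lost in 6 of the 9 fits that left out 1 library. The edgeR adjusted p was 0.134 without 2-month replicate 2, 0.117 without 2-month replicate 3 and 0.0525 without 12-month replicate 2. It was 0.0832, 0.0759 and 0.101 without 24-month replicates 1, 2 and 3. Without the 3 salivary-rich libraries the log2 fold change was 1.33 with an adjusted p of 0.216. Il15ra, the chain that holds IL-15 on the surface of the cell that presents it, had 4.12 ± 0.496 CPM at 24 months against 4.34 ± 1.31 CPM at 2 months, with 4.56 ± 0.736 CPM at 12 months, and was not called. The fibroblast and the macrophage markers, given with Csf1, also summed highest at 24 months. So did the 8 mast cell markers, with 34.3 to 40.3 CPM at 24 months against 17.9 to 21.7 CPM at 2 months. Most of the mast cell sum was 1 gene, Kit, which other cells also use, with 29.2 CPM at 24 months against 19.1 CPM at 2 months, and Fcer1a was at 0 in 8 of the 9 libraries. The part of these cells in the Il15 values was not tested.

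Il7, the survival factor of naive T cells (ENSMUSG00000040329, chromosome 3, 7569994 to 7613760, minus strand), had 38, 22 and 9 counts in the 2-month, 22, 24 and 15 in the 12-month, and 18, 32 and 59 in the 24-month libraries. The means were 0.616 ± 0.347, 0.443 ± 0.0883 and 0.798 ± 0.363 CPM at 2, 12 and 24 months, and all 3 groups overlapped. The log2 fold change was 0.37 at 24 against 2 months (interval -0.74 to 1.48, edgeR adjusted p = 0.667) and -0.48 at 12 against 2 months (interval -1.62 to 0.66, adjusted p = 0.645). Its receptor chain Il7r, a marker of T cells and innate lymphoid cells, rose. Il7r had 0.917, 1.95 and 1.57 CPM at 24 months against 0.399, 0.264 and 0.368 CPM at 2 months, and 1.76, 2.17 and 0.932 CPM at 12 months. Its log2 fold change was 2.09 at 24 against 2 months (edgeR adjusted p = 0.00726) and 2.22 at 12 against 2 months (adjusted p = 0.0086). The second of these no longer passed without 2-month replicate 2 (adjusted p = 0.0505). Il7 per Il7r count was 1.84 ± 0.992 at 2 months, 0.291 ± 0.0702 at 12 months and 0.549 ± 0.192 at 24 months. The 8 T cell markers were all detected, and edgeR called all 8 higher at 12 and at 24 against 2 months (5.41 and 9.82% of all genes). In these 2 comparisons limma voom called 5 and 3 of the 8 (6.93 and 15.7% of all genes). Without the 3 salivary-rich libraries edgeR called 2 and 4 (0.844 and 4.16% of all genes). The markers summed to 1.1 to 1.59 CPM at 2 months, 7.66 to 30.4 CPM at 12 months and 9.09 to 20 CPM at 24 months. The part of T cell number in these ratios was not tested.

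None of the 4 interleukin 1 family members was called in any comparison by edgeR with TMM scaling and the count filter on all 9 libraries. Il33, an alarm signal of epithelial and stromal nuclei (ENSMUSG00000024810, chromosome 19, 29925114 to 29960718, plus strand), came closest. It had 67, 31 and 19 counts in the 2-month, 81, 111 and 70 in the 12-month, and 54, 124 and 146 in the 24-month libraries. The levels were 1.67, 0.91 and 0.538 CPM at 2 months, 1.83, 2.27 and 1.59 CPM at 12 months, and 1.41, 2.84 and 2.94 CPM at 24 months. In both older groups 1 library lay below the highest 2-month library, so the groups overlapped. The log2 fold change was 1.20 at 24 against 2 months (SE 0.404, interval 0.32 to 2.08, edgeR adjusted p = 0.0596) and 0.86 at 12 against 2 months (interval -0.02 to 1.74, adjusted p = 0.226). DESeq2 called the first with an adjusted p of 0.0171 and limma voom with 0.0315. With edgeR it also passed with library totals alone (0.0419), without the count filter (0.00451), without 2-month replicate 1 (0.0191) or without 24-month replicate 1 (0.03). It was farthest from passing without the 3 salivary-rich libraries (log2 0.77, adjusted p = 0.386). Il1rl1, the receptor ST2 of IL-33, had 0.252 CPM at 24 months against 0.268 CPM at 2 months, with 0.326 CPM at 12 months, and was not called.

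Il18, an inflammasome product that drives interferon-γ from T and natural killer cells (ENSMUSG00000039217, chromosome 9, 50554827 to 50581840, plus strand), had 18, 12 and 1 counts at 2 months. It had 21, 38 and 17 counts at 12 months and 28, 24 and 39 at 24 months. In CPM the 24-month libraries with 0.733, 0.55 and 0.785 were all above the 2-month libraries with 0.448, 0.352 and 0.0283, and the 12-month libraries with 0.474, 0.777 and 0.386 overlapped both. With 15.8-fold between the highest and the lowest 2-month library, the log2 fold change of 1.30 at 24 against 2 months was not called (interval -0.10 to 2.70, edgeR adjusted p = 0.188). For 12 against 2 months it was 0.97 (interval -0.44 to 2.37, adjusted p = 0.409). These values moved with the libraries and the tool. For 12 against 2 months the log2 value was 0.44 without 2-month replicate 3, the library with 1 count, 1.52 without 2-month replicate 1, 0.10 without the 3 salivary-rich libraries and 2.18 with limma voom. At 24 against 2 months it was 0.78 without 2-month replicate 3 and 2.39 with limma voom (adjusted p = 0.0574).

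Il1a (ENSMUSG00000027399, chromosome 2, 129299610 to 129309972, minus strand) encodes IL-1α and had 5, 6 and 3 counts in the 2-month, 6, 26 and 9 in the 12-month, and 5, 23 and 23 in the 24-month libraries. The library with 5 counts at 24 months was at the level of the youngest glands, and the groups overlapped. At 24 against 2 months the log2 fold change was 1.53 (interval -0.05 to 3.12, edgeR adjusted p = 0.166). Il1b, the gene of IL-1β (ENSMUSG00000027398, chromosome 2, 129364570 to 129371139, minus strand), had 10, 9 and 10 counts in the 2-month, 11, 13 and 20 in the 12-month, and 20, 18 and 14 in the 24-month libraries. Its means were 0.406 ± 0.121 CPM at 24 months against 0.265 ± 0.0169 CPM at 2 months, with 0.323 ± 0.114 CPM at 12 months (log2 0.60 at 24 against 2 months, interval -0.48 to 1.69, edgeR adjusted p = 0.447). Genes on the opposite strand overlap exons of both, Gm14023 over 222 bases of Il1a and Il1bos over 25 bases of Il1b. Gm14023 itself had 34 to 87 counts in a library and Il1bos 4 to 24. The strand setting of the counting was not given, so reads of these pairs may not be separable, and the same holds for Il7 and Gm16685 over 105 bases (0 to 5 counts). Markers of neutrophils, a further source of IL-1β, summed to 0.0294 to 0.698 CPM at 2 months, 0.7 to 1.39 CPM at 12 months and 1.02 to 3.3 CPM at 24 months over 8 genes, of which 1 had enough counts for a test, and their part in the Il1b values was not tested.

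Tnf, the product of activated macrophages and T cells (ENSMUSG00000024401, chromosome 17, 35199381 to 35202007, minus strand), was the member with the lowest fold change at 24 against 2 months. It had 40, 38 and 30 counts in the 2-month, 24, 58 and 44 in the 12-month, and 14, 18 and 74 in the 24-month libraries. In CPM the 24-month values of 0.367, 0.413 and 1.49 lay on both sides of the 2-month values of 0.997, 1.12 and 0.849, with 0.542, 1.19 and 1.0 at 12 months. The highest 24-month library was 4.06-fold above the lowest, against 1.32-fold at 2 months. The log2 fold change was -0.37 at 24 against 2 months (interval -1.50 to 0.77, edgeR adjusted p = 0.684) and -0.12 at 12 against 2 months (interval -1.24 to 1.01, adjusted p = 0.927). Single libraries moved the first of these: it was -1.33 without 24-month replicate 3 (edgeR adjusted p = 0.0997), the library with 74 counts, -0.05 without 24-month replicate 1 and -0.07 without 24-month replicate 2. Its sign also depended on the scaling: with library totals alone it was 0.01 at 24 against 2 months and 0.20 at 12 against 2 months.

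Il6, the ligand of the acute phase response (ENSMUSG00000025746, chromosome 5, 30013114 to 30019981, plus strand), was near the floor of the measurement. It had 0 counts in all 3 libraries of 2 months. The 12-month libraries held 1, 4 and 0 counts and those of 24 months 3, 0 and 0. A count of 0 allows up to 3.69 counts of a library and a count of 4 spans 1.09 to 10.2 (exact Poisson 95% intervals, counting error only), so a difference between ages was not detectable at this depth. Tested without the filter on low counts, its edgeR adjusted p was 0.501 at 24 against 2 months and 0.435 at 12 against 2 months.

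**Figure D2:**
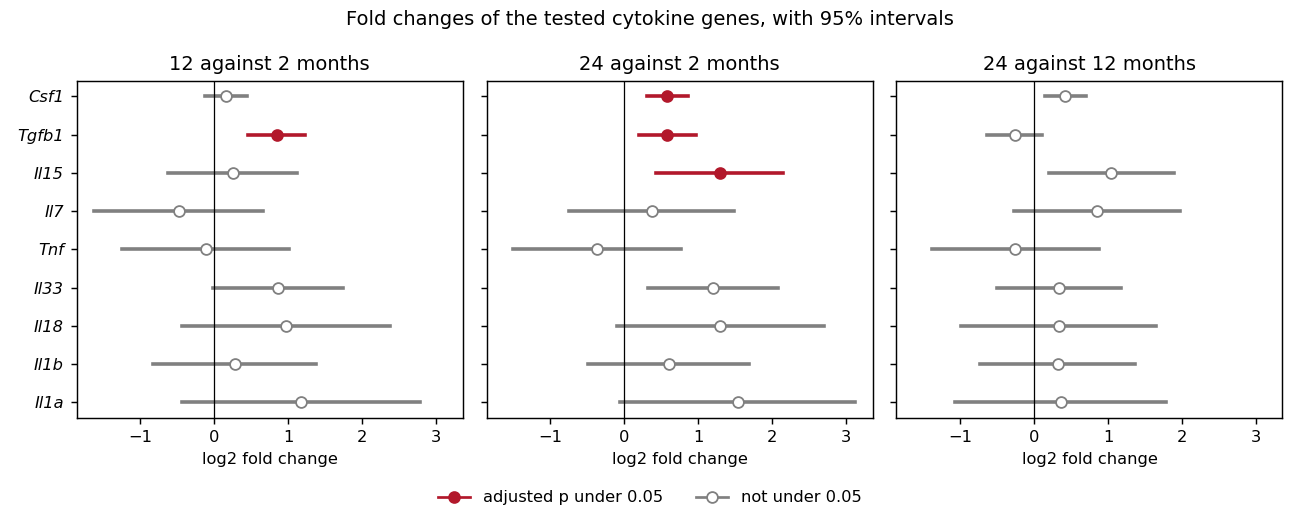
Log2 fold change (horizontal axis) of the 9 tested cytokine genes in 3 comparisons of ages, from edgeR, with 95% intervals as lines and called genes marked. The intervals of Csf1 and Tgfb1 are the narrowest, and those of Il1a and Il18 span more than 2 log2 units.

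Within an age several members ranked alike by library. At 24 months replicate 3 had the highest level of 6 of 9 members (Il18, Il33, Tnf, Il7, Tgfb1 and Csf1) and replicate 1 the lowest of 6. At 2 months replicate 1 was the highest for 6 (Il18, Il33, Il7, Il15, Tgfb1 and Csf1) and replicate 3 the lowest for 6. At 12 months replicate 2 was the highest for 5 and replicate 3 the lowest for 5. Of these, 2-month replicate 3 and 12-month replicate 2 are among the salivary-rich libraries, and the part of that tissue in the ranks was not tested. Macrophage markers were also highest in 24-month replicate 3, with 371 CPM, and 2-month replicate 1, with 102 CPM, and the part of that difference in the members' values was not tested. By the measure of no overlap between libraries, 4 members (Il18, Il15, Tgfb1 and Csf1) were higher at 24 than at 2 months, against 18.4% of all genes. Tgfb1 alone was higher at 12 than at 2 months in this way, against 15.1% of all genes, and at 24 against 12 months 2 members (Il15 and Csf1), against 12.1%. None was lower without overlap in any of these comparisons, against 16.7, 12.4 and 12.6% of all genes.

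**Figure D3:**
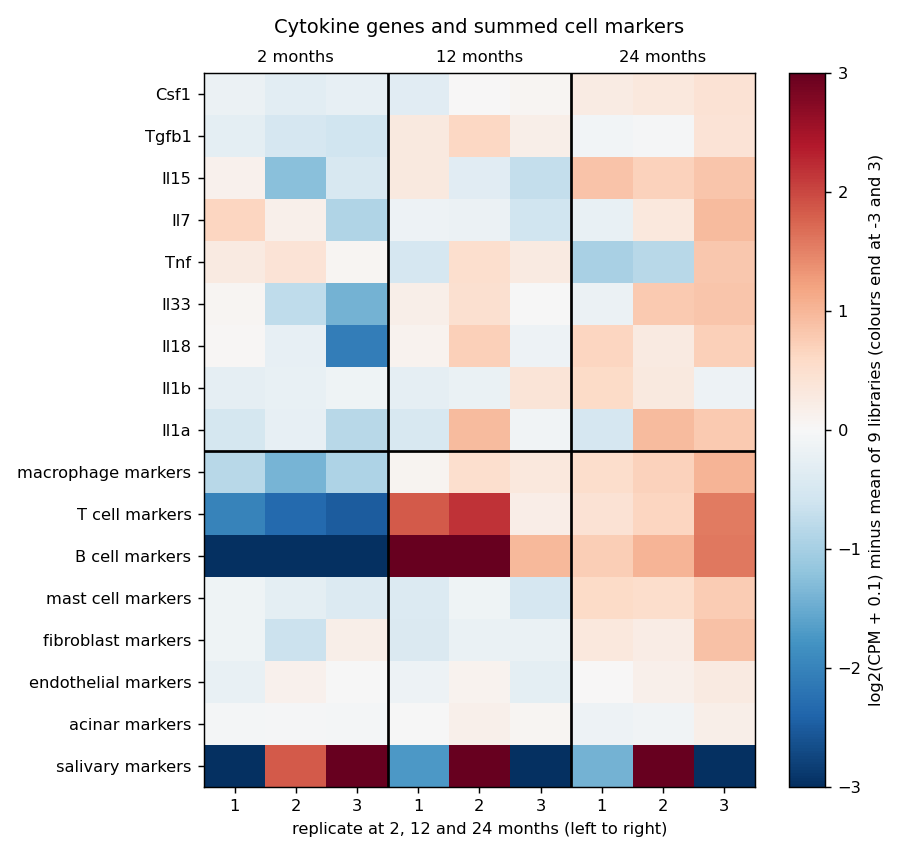
Level of the tested cytokine genes and the summed markers of cell types in each of the 9 libraries (columns, 2 to 24 months), as log2(CPM + 0.1) minus its mean over the 9 libraries, with colours that end at -3 and 3. Macrophage, T cell and B cell markers are low in all 2-month libraries, and within 24 months replicate 3 is high for most members.

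Of 17 receptor chains of the members, all tested, 8 rose and 1 fell at 24 against 2 months, with a median log2 fold change of 0.27, and 6 rose and 0 fell at 12 against 2 months, with a median of 0.35 (0.01 over all genes in both). Of all genes 9.82% were called higher and 7.56% lower in the first comparison, and 5.41 and 2.52% in the second. At 24 against 12 months 0 rose and 1 fell, beside 2.79 and 1.6% of all genes. Several of these chains are carried by leukocytes, and the T cell markers (mean sum 13.2 CPM at 24 months against 1.32 CPM at 2 months), the B cell markers (20.5 against 0.505 CPM) and the macrophage markers (310 against 89.4 CPM) were higher in the same comparison. The part of these cells in the receptor values was not tested. Tnfrsf1b, the TNF receptor of leukocytes, had 3.72, 4.38 and 5.48 CPM at 24 months against 1.59, 1.03 and 1.7 CPM at 2 months, and 4.61, 4.72 and 3.68 CPM at 12 months. Both older groups were clear of the youngest, with log2 fold changes of 1.65 at 24 months (edgeR adjusted p = 0.00129) and 1.59 at 12 months (adjusted p = 0.00265). Tnfrsf1a, the TNF receptor of most cell types, was not called, with 25.4 ± 2.73 CPM at 24 months against 23.4 ± 0.951 CPM at 2 months, and 22.2 ± 0.708 CPM at 12 months. Il2rg, the chain shared by the receptors of IL-7 and IL-15, had 4.8 ± 1.04 CPM at 24 months against 1.07 ± 0.337 CPM at 2 months (log2 2.16, edgeR adjusted p = 0.00492), and 6.09 ± 3.22 CPM at 12 months (log2 2.51 against 2 months, adjusted p = 0.00371). Il6ra, the binding chain for IL-6, rose at 12 against 2 months (2.21 ± 0.387 against 0.609 ± 0.252 CPM, log2 1.85, edgeR adjusted p = 0.00789).

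The chain that fell was Il1r1, the signalling receptor of both IL-1 proteins. It had 13.5, 11.7 and 10.8 CPM at 24 months against 19.9, 16.2 and 18.4 CPM at 2 months, and 16.1, 19.0 and 19.4 CPM at 12 months. The 24-month libraries were below all others. The log2 fold change was -0.60 at 24 against 2 months (edgeR adjusted p = 0.00687) and -0.60 at 24 against 12 months (adjusted p = 0.0157), the second of which no longer passed when replicate 2 or 3 of either age was left out (adjusted p up to 0.0595). The calls at 24 against 2 months of Tnfrsf1b, Il2rg, Il1r1, Il7r and Csf1r held when any 1 library was left out. That of Il1r1 was lost with library totals alone (log2 -0.32, adjusted p = 0.161) and without the 3 salivary-rich libraries (-0.57, 0.107), and that of Il7r without those libraries (1.91, 0.0958). Il18r1, a chain of the IL-18 receptor, rose by a log2 fold change of 2.71 (edgeR adjusted p = 0.0154), Il6ra by 1.36 (0.0208) and Il2rb, the signalling chain for IL-15, by 1.60 (0.013). Il18r1 no longer passed with 2-month replicate 2 or 3 left out (adjusted p up to 0.0667). Il6ra and Il2rb no longer passed with 2-month replicate 2 or 24-month replicate 3 left out (up to 0.0742 and 0.0589). Without the 3 salivary-rich libraries 3 receptor chains were called at 24 against 2 months and 0 at 12 against 2 months.

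Of 13 decoy receptors, antagonists and inner inhibitors, 3 rose and 1 fell at 24 against 2 months (median log2 0.09). The shares of all genes were 9.82% higher and 7.56% lower. At 12 against 2 months 2 rose and 1 fell (median 0.25), beside 5.41 and 2.52% of all genes. On the IL-1 side the decoy receptor and the soluble antagonist went opposite ways. Il1r2, the decoy receptor, had 4.27, 2.22 and 2.17 CPM at 24 months against 7.23, 7.81 and 6.88 CPM at 2 months, and 3.5, 4.74 and 7.02 CPM at 12 months. It fell at 24 against 2 months with no overlap (log2 -1.35, edgeR adjusted p = 0.00897), and no longer passed without the 3 salivary-rich libraries (-1.23, 0.104). Il1rn, the receptor antagonist, had 7, 22 and 18 counts at 24 months against only 2, 1 and 2 at 2 months, with 5, 14 and 13 in the 12-month libraries (log2 2.87 at 24 against 2 months, edgeR adjusted p = 0.0191). Its call no longer passed without 2-month replicates 2 or 3 or 24-month replicates 2 or 3 (adjusted p up to 0.079). The count of Il1rn per count of Il1a and Il1b together was 0.434 ± 0.136 at 24 months against 0.118 ± 0.0456 at 2 months, with 0.367 ± 0.0774 at 12 months.

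Il18bp, which binds and blocks IL-18, had 2.3, 1.56 and 3.7 CPM at 24 months against 0.872, 1.03 and 0.849 CPM at 2 months, and 2.6, 3.21 and 1.45 CPM at 12 months. It rose at 24 months (log2 1.46, edgeR adjusted p = 0.0199) and at 12 months (log2 1.40, adjusted p = 0.0381), both against 2 months. Leaving out any 1 of the 2-month libraries or 24-month replicate 3 ended the first call (adjusted p up to 0.0912), and any 1 of the 2-month libraries or 12-month replicate 1 or 2 the second (up to 0.181). Cish, a STAT5-induced inhibitor of cytokine receptors, set the oldest glands apart from both other ages. It had 17.6, 16.3 and 17.0 CPM at 24 months against 6.08, 8.34 and 7.56 CPM at 2 months and 6.14, 5.64 and 4.2 CPM at 12 months. The log2 fold change was 1.21 against 2 months (edgeR adjusted p = 0.000625) and 1.67 against 12 months (adjusted p = 0.000146), and both calls held with any 1 library left out and without the 3 salivary-rich ones. At 12 against 2 months Tnfaip3, the NF-κB brake A20, was called higher (log2 1.36, edgeR adjusted p = 0.0327) and Smad6, an inhibitor of SMAD signalling, lower (log2 -1.10, adjusted p = 0.0313). Tnfaip3 no longer passed without 2-month replicates 2 or 3 or 12-month replicate 2 (adjusted p up to 0.167), and Smad6 without 2-month replicates 1 or 2 or any 12-month replicate (up to 0.131).

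**Figure D4:**
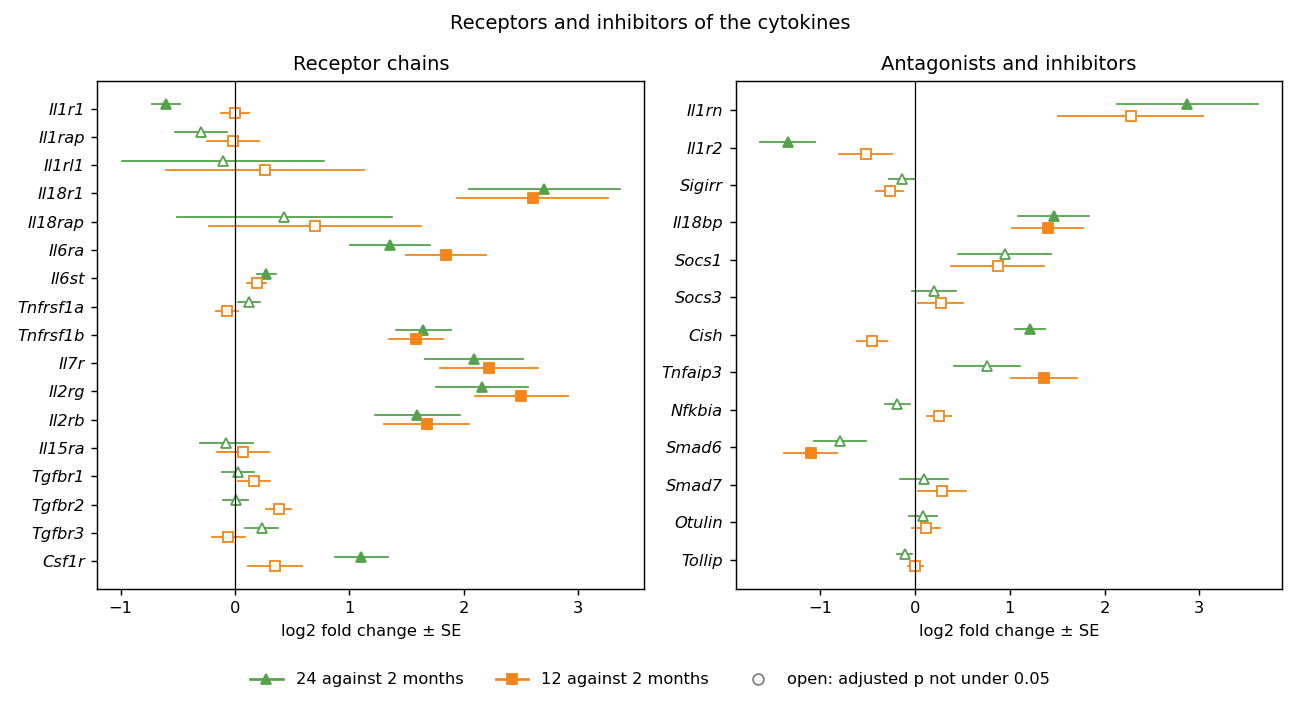
Log2 fold change ± SE from edgeR (horizontal axes) of the 17 receptor chains and the 13 antagonists and inhibitors, at 24 against 2 months (triangles) and at 12 against 2 months (squares), with filled points for called genes. Il1r1 and Il1r2 lie below 0 at 24 against 2 months, Tnfrsf1b, Il7r and Il2rg lie above 1 in both comparisons, and Csf1r and Cish are filled only at 24 against 2 months.

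Among 15 tested genes that mature or release the cytokines, 3 rose and 1 fell at 24 against 2 months (median log2 0.41). The shares of all genes were 9.82% higher and 7.56% lower. At 12 against 2 months 3 rose (median 0.33), beside 5.41% of all genes. Casp1, the protease that cleaves the precursors of IL-1β and IL-18, had 2.36, 3.44 and 4.09 CPM at 24 months against 1.25, 0.763 and 1.16 CPM at 2 months, and 2.85, 3.23 and 1.89 CPM at 12 months. The older groups lay above the youngest, with log2 fold changes of 1.64 at 24 months (edgeR adjusted p = 0.00489) and 1.32 at 12 months (adjusted p = 0.0211). Casp4, the sensor of bacterial lipopolysaccharide inside cells, rose at 24 against 2 months (log2 1.45, edgeR adjusted p = 0.0157) and at 12 against 2 months (log2 1.35, adjusted p = 0.0344). Gsdmd, which forms the release pore, rose at 12 against 2 months (log2 1.40, edgeR adjusted p = 0.0465). Pycard, the adaptor of the inflammasome, fell: it had 24.6, 20.1 and 19.2 CPM at 24 months against 45.1, 43.8 and 36.7 CPM at 2 months (log2 -0.97, edgeR adjusted p = 0.00135), with 32.0, 31.4 and 43.4 CPM at 12 months. Mcpt4, a mast cell chymase, had 4.06, 1.83 and 2.86 CPM at 24 months against 0.0997, 0.0294 and 0.255 CPM at 2 months (log2 4.48, edgeR adjusted p = 0.000625). Mcpt4 is itself 1 of the 8 mast cell markers, of which 5 were tested and all 5 rose at 24 against 2 months, and the part of mast cell number in its values was not tested. Its log2 fold change was 5.39 without 2-month replicate 3. At 24 against 2 months the calls of Casp1, Pycard and Mcpt4 held with any 1 library left out, and that of Casp4 no longer passed without 2-month replicates 2 or 3 or 24-month replicate 3 (adjusted p up to 0.0676). At 12 against 2 months Casp1 was lost in 4 of the 9 fits (2-month replicates 2 and 3, 12-month replicates 1 and 2, adjusted p up to 0.0989). Casp1 also no longer passed at 24 against 2 months without the 3 salivary-rich libraries (log2 1.69, adjusted p = 0.0598). Casp4 was lost at 12 against 2 months in 5 (also 2-month replicate 1, up to 0.17), and Gsdmd in 5 (2-month replicates 1 and 2, 12-month replicates 1 and 2 and 24-month replicate 2, up to 0.214).

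Of 14 genes that store or activate latent TGF-β, or encode its other isoforms, 4 rose at 24 against 2 months (median log2 0.45). The share of all genes called higher was 9.82%. At 12 against 2 months 1 rose and 1 fell (median 0.02), beside 5.41 and 2.52% of all genes. Nrros, which tethers latent TGF-β1 on macrophages and microglia, had 2.62, 4.1 and 4.75 CPM at 24 months against 1.17, 1.47 and 1.22 CPM at 2 months (log2 1.58, edgeR adjusted p = 0.00509), and 3.18, 4.39 and 2.25 CPM at 12 months (log2 1.35 against 2 months, adjusted p = 0.0173). Its later call held with any 1 library left out but not without the 3 salivary-rich libraries (adjusted p = 0.0621), and the earlier one no longer passed when any 1 of the 2-month libraries or 12-month replicate 2 was left out (adjusted p up to 0.0908). Itgb6, a chain of the epithelial integrin that activates TGF-β, fell at 12 against 2 months (0.331 ± 0.169 against 1.21 ± 0.424 CPM, log2 -1.86, edgeR adjusted p = 0.0174). That call no longer passed without 2-month replicates 2 or 3 or 12-month replicates 1 or 2 (up to 0.0846). Itgb6 was highest at 24 months, with 2.3 ± 0.346 CPM and all libraries above those of both other ages. It was called against 12 months (log2 2.79, edgeR adjusted p = 0.0026) and not against 2 months (log2 0.93, adjusted p = 0.107). Tgfb3 (log2 0.77, edgeR adjusted p = 0.0323), Dcn, a proteoglycan that binds TGF-β (0.66, 0.0245), and Thbs1, an activator of it (1.46, 0.0406), rose at 24 against 2 months. Each of these 3 was lost in some of the 9 fits that left out 1 library. For Tgfb3 these were 2-month replicates 2 and 3 and 24-month replicate 2, and its log2 fold change was 0.52 to 0.99. For Dcn they were 2-month replicates 1 and 2 and 24-month replicate 3. For Thbs1 they were 2-month and 24-month replicates 2 and 3 and 12-month replicates 1 and 2, with a log2 fold change of 0.92 to 1.81. Dcn is also 1 of the 7 fibroblast markers, of which 5 rose at 24 against 2 months, and the part of fibroblast and macrophage numbers in this list was not tested.

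Genes linked to the signals of these cytokines were read from 3 lists, which also hold parts of the pathways such as Smad3 and Stat3. Of 15 tested genes induced through NF-κB by IL-1 and TNF, 5 rose at 24 against 2 months (median log2 0.30). At 12 against 2 months 5 rose (median 0.74), and 0 fell in either comparison. The shares of all genes called higher were 9.82 and 5.41%, and those called lower 7.56 and 2.52%. Tnfaip2, a gene induced by TNF, had 3.35, 6.19 and 5.44 CPM at 24 months against 0.997, 0.734 and 0.962 CPM at 2 months (log2 2.47, edgeR adjusted p = 0.000225), and 3.03, 4.01 and 4.16 CPM at 12 months (log2 2.05 against 2 months, adjusted p = 0.00119). Vcam1, an adhesion molecule for lymphocytes and monocytes, was higher at both ages (log2 2.11 at 24 months, edgeR adjusted p = 0.000858; 1.66 at 12 months, adjusted p = 0.0048). So was Traf1, an adaptor of TNF receptors (log2 2.60, edgeR adjusted p = 0.00365, and 2.94, adjusted p = 0.00319). The calls of Tnfaip2, Vcam1 and Traf1 held with any 1 library left out. Bcl3 at 24 against 2 months (log2 1.21, edgeR adjusted p = 0.0226) no longer passed without 2-month replicates 1 or 3 or 24-month replicate 3 (up to 0.0815). Nfkbie at 12 against 2 months (log2 2.16, adjusted p = 0.0126) no longer passed without 2-month replicates 2 or 3 or 12-month replicate 2 (up to 0.0713). Both encode inhibitor-of-κB family proteins. B cell markers, 7 genes that were all detected, summed to 0.424 to 0.623 CPM at 2 months, 18.2 to 156 CPM at 12 months and 15.4 to 27.6 CPM at 24 months. By edgeR all 7 were called higher at 12 and at 24 against 2 months, while limma voom called 0 in both (6.93 and 15.7% of all genes). Without the 3 salivary-rich libraries edgeR called 6 and 7 (0.844 and 4.16% of all genes). At 24 against 12 months edgeR called 4 of the 7 lower (1.6% of all genes). The part of lymphocyte and macrophage numbers in the NF-κB list was not tested.

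Of 16 genes linked to STAT3 or STAT5, 6 rose and 1 fell at 24 against 2 months (median log2 0.36). The shares of all genes were 9.82% higher and 7.56% lower. At 12 against 2 months 1 rose (median 0.14), beside 5.41% of all genes. Socs2, a STAT5-induced suppressor of cytokine and growth hormone receptors, followed the pattern of Cish. It had 23.1, 35.7 and 27.8 CPM at 24 months against 4.76, 7.6 and 7.39 CPM at 2 months and 6.28, 5.99 and 6.43 CPM at 12 months. All 24-month libraries were above the rest (log2 2.14 against 2 months, edgeR adjusted p = 7.49e-05; 2.21 against 12 months, adjusted p = 8.17e-05), and both calls held with any 1 library left out and without the 3 salivary-rich ones. Steap4, a metalloreductase induced by inflammatory cytokines, rose at 24 against 2 months (log2 0.90, edgeR adjusted p = 0.0013), as did Osmr, the receptor of oncostatin M (log2 1.14, adjusted p = 0.0148). Osmr no longer passed without 2-month replicate 2 or 24-month replicate 3 (up to 0.0661). Lrg1, a secreted glycoprotein of the acute phase, fell (12.2 ± 1.64 CPM at 24 months against 19.7 ± 2.74 CPM at 2 months, log2 -0.69, edgeR adjusted p = 0.00925). Its call was lost with library totals alone (log2 -0.40, adjusted p = 0.0508) and without the 3 salivary-rich libraries (-0.66, 0.114). Il4ra was the gene that rose at 12 against 2 months (log2 1.86, edgeR adjusted p = 0.00725). It had 6.33 ± 3.04 CPM at 12 months and 4.4 ± 1.26 CPM at 24 months against 1.74 ± 0.172 CPM at 2 months. Every library of both older ages was above all 2-month libraries. The part of leukocyte number in the STAT list was not tested.

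Of 16 tested genes linked to TGF-β signalling, among them parts of the pathway such as Smad3, 5 rose at 24 against 2 months (median log2 0.37). The share of all genes called higher was 9.82%. At 12 against 2 months, the comparison with the larger fold change of Tgfb1, edgeR called 0 of 16 (median log2 -0.19), against 7.93% of all genes. DESeq2 called 2 and limma voom 0. An unadjusted edgeR p under 0.05 was found for 5. Of these, Col1a1 (log2 -0.66), Col3a1 (-0.64) and Id1 (-1.015) were lower, and Smad3 (0.28) and Bhlhe40 (0.55) were higher. Smad3, a transducer of the TGF-β signal, had 17.3, 15.4 and 17.3 CPM at 24 months against 11.4, 10.7 and 9.9 CPM at 2 months, and 12.4, 13.2 and 13.2 CPM at 12 months. The 3 groups did not overlap, and the log2 fold change of 0.64 at 24 against 2 months (edgeR adjusted p = 0.00215) held with any 1 library left out. Tgfbi, a matrix protein named for its induction by TGF-β, rose by a log2 fold change of 0.84 at 24 against 2 months (edgeR adjusted p = 0.0106), and no longer passed without 2-month replicate 2 (0.0543). Fn1, fibronectin (log2 2.13, edgeR adjusted p = 0.0249), and Bhlhe40, a transcription factor (0.86, adjusted p = 0.0334), each lost their call in 4 of the 9 fits. For Fn1 these left out 2-month replicates 1 or 2 or 24-month replicates 1 or 3 (adjusted p up to 0.079), and for Bhlhe40 2-month or 24-month replicates 2 or 3 (up to 0.144). The log2 fold change of Fn1 was 3.05 without 2-month replicate 3 and 3.36 without the 3 salivary-rich libraries. In the same comparison 5 of 7 fibroblast and 9 of 12 macrophage markers rose, Col1a1 and Col1a2 stand in both the TGF-β and the fibroblast list, and the part of these cells in the TGF-β list was not tested.

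Without the 3 salivary-rich libraries, at 24 against 2 months, 3 of the NF-κB list, 3 of the STAT list and 3 of the TGF-β list were called. Over all genes 4.16% were called in that fit. The counts for 12 against 2 months were 1, 0 and 0, beside 0.844% of all genes. Of the antagonists 1 was called in this way at 24 against 2 months, of the processing genes 2 and of the latent TGF-β list 0, and 0 of each at 12 against 2 months. Among the genes named here from the lists, the calls at 24 against 2 months that held without those libraries were those of Tnfrsf1b, Il2rg, Csf1r, Cish, Mcpt4, Pycard, Tnfaip2, Vcam1, Traf1, Socs2, Steap4, Smad3, Tgfbi and Fn1, and the others had adjusted p of 0.0544 (Dcn) to 0.373 (Tgfb3). At 12 against 2 months Tnfaip2 held (adjusted p = 0.0397), and the other named genes had 0.0611 (Tnfrsf1b) to 0.442 (Tnfaip3).

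Of 22 related cytokine genes that are not members, only 4 had enough counts for a test, and edgeR called 0 of 4 in each comparison, as did DESeq2 and limma voom. An unadjusted p under 0.05 was found for 0 of 4 at 24 against 2 months and at 12 against 2 months and for 1 of 4 at 24 against 12 months. The untested genes that follow were chosen after their values were seen. Il12a, a chain of IL-12 and IL-35, had 0, 0 and 0 counts in the 2-month, 11, 17 and 0 in the 12-month, and 0, 0 and 1 in the 24-month libraries. Il10, an anti-inflammatory cytokine, had 0, 0 and 0 counts in the 2-month, 0, 1 and 3 in the 12-month, and 1, 7 and 6 in the 24-month libraries. Il21 of follicular helper T cells had at most 4 counts in a library, Ifng of type 1 helper T cells at most 5, and Il17a had 0 in all 9.

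The patterns closest to each called member over the 9 libraries were found among 9554 tested genes of at least 2 CPM by Pearson's r of log2(CPM + 0.5). For Csf1 they were Poglut1 (r = 0.960), Ndrg1 (0.959) and Asxl1 (0.957). Tgfb1 was closest to Sh3bgrl3 (0.977), Inpp5d (0.974) and Wdfy4 (0.967). Inpp5d, which encodes the phosphatase SHIP1 of blood cells, had 2.19, 1.82 and 1.61 CPM at 2 months, 6.57, 7.54 and 3.66 CPM at 12 months and 3.12, 3.67 and 6.95 CPM at 24 months. Il15 was closest to Pigh (0.942), Lrrc42 (0.938) and Men1 (0.937). By Spearman's rho the 3 nearest genes included 1 of these 3 for each member. The libraries share ages, depth and scaling, and these r values describe 9 points only.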

How the data were processed

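Per the labels' protocols, total RNA of lacrimal glands was extracted with an RNeasy Plus Micro kit and read on a BGISEQ500RS as pairs. The deposited counts are whole reads per gene. The submitters' processing notes list GRCm38 as the build and STAR, HTSeq, cutadapt, FastQC and DESeq2 as tools. Strand setting, read filters, annotation release and tool versions are not given in those sources. The log2 values that the authors deposited equalled log2(count / factor + 1) of those counts, in 100% of values within 1e-06, and served for this check only. Symbols and coordinates were taken from GENCODE M21 (54165 of 54232 IDs matched, with up to 0.00105% of a library in the 67 unmatched IDs). Promoter windows and their sequences come from RefSeq.

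The test was edgeR 4.0.16 in R 4.3.3: a quasi-likelihood F test with TMM scaling and filterByExpr at a minimum count of 10. All 9 libraries entered 1 model of the 3 ages, with 6 residual degrees of freedom and a common coefficient of variation of 21.2%. Benjamini-Hochberg adjustment ran over the 14944 tested genes, with calls under 0.05. The procedure was tested on simulated data. TPM used merged exon lengths. Intervals of counts are exact Poisson and cover counting error only.

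All 10 members are named. Of each list, up to 4 called genes with the smallest p at 24 against 2 and at 12 against 2 months are named, and receptors and inhibitors of a member may be given whatever their test. The members, lists and tests were chosen with earlier results of these data known. Alternatives were RLE scaling, library totals, other count filters, limma voom 3.58.1, DESeq2 1.42.0, the replicate number as a block, a threshold of 0.01, and leaving out single libraries, the salivary-rich ones or those with muscle transcripts. Figures were drawn with matplotlib 3.10.9 in Python 3.11.15, with numpy 2.4.6 and pandas 2.3.3.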

Additional observations from a re-analysis of the deposited data

How the results depend on the processing

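Csf1 at 24 against 2 months kept its call in every alternative run except without the 3 salivary-rich libraries, while the calls of Tgfb1 and Il15 depended on single libraries. Genes called at 12 against 2 months (1185) became 2026 without the count filter, 701 with the replicate number as a block, 127 without the salivary-rich libraries, 746 without the 2 muscle libraries, 383 at 0.01, and 435 to 1285 leaving out 1 library, with 0 members without the salivary-rich libraries and at 0.01, and 0 to 1 leaving out 1. At 24 against 2 months (2597 genes, 3 members) they became 626 and 891 without the salivary-rich libraries and at 0.01, with 0 and 1 members, and 1160 to 2623 with 1 to 4 members leaving out 1. At 24 against 12 months (656) they became 340 with library totals, 1486 without the filter, 1198 with DESeq2 (1 member), 409 with the block, 170 without the salivary-rich libraries, 132 without the muscle libraries, 211 at 0.01 and 312 to 700 leaving out 1 (0 members). For the 3 ages together (2534 genes, 2 members) they became 1640 with the block, 471 without the salivary-rich libraries and 842 at 0.01 (0 members in both), 1396 to 2532 and 1 to 4 members leaving out 1, and 4 members without the filter and with DESeq2. Same-numbered libraries did not deviate together (correlations of -0.154 to 0.061, and not every library correlated best with its own number), so the numbers were not taken as pairs. The block ended the call of Tgfb1 at 24 against 2 months (adjusted p = 0.0821), and among the named list genes those of Tgfb3, Thbs1 and Bhlhe40 in that comparison and of Smad6, Tnfaip3, Il18bp, Casp1, Casp4 and Gsdmd at 12 against 2 months. With library totals alone the median of all genes was 0.31 at 12 and at 24 against 2 months, and 95.3 and 93.2% of called genes were higher, against 68.2 and 56.5% with TMM. With limma voom 56.3% were higher at 12 against 2 months. Over the longest transcript Tgfb1 had 2.79 TPM and Il1b 0.21 TPM. Among the named list genes, library totals alone ended the calls of Il1r1 (24 against 2 and 24 against 12 months), Lrg1 and Smad6, and limma voom those of Il18bp (both comparisons), Dcn, Fn1, Smad6, Casp4 and Gsdmd (12 against 2 months for the last 3). Leaving out the 2 muscle libraries left 1 library at 12 months, replicate 2, which is itself salivary-rich. For single genes in its comparisons with 12 months, only log2 values of that fit are given. Its numbers of called genes at 12 against 2 and at 24 against 12 months rest on that 1 library. They cannot show whether the calls depend on the muscle libraries. The part of muscle tissue in the values of that fit was not tested. Signs turned for uncalled values only. At 12 against 2 months Tnf was 0.20 with library totals, 0.26 without the muscle libraries and -0.36 to 0.15 leaving out 1, Il7 was 0.029 with limma voom, Il15 was -0.10 to 0.70 leaving out 1, and Il1b was -0.004 without the muscle libraries and -0.054 to 0.432 leaving out 1. At 24 against 2 months Tnf was 0.007 with library totals and Il7 -0.029 to 0.832 leaving out 1. At 24 against 12 months Tnf was 0.30 without the salivary-rich libraries and -1.208 to 0.071 leaving out 1, and without the muscle libraries Il1a was -0.48 and Il18 -0.16. The causes were not tested, other than that fewer libraries or genes entered some fits. Members with under about 100 counts in a library are known only within wide counting intervals.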

Other observations

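Other cytokine and inflammation genes had too few counts for a test, and their counts are given as values, for genes chosen after the counts were seen. Il23a had 5, 8 and 8 counts in the 2-month, 11, 2 and 26 in the 12-month, and 0, 8 and 6 in the 24-month libraries. Osm, an IL-6 family cytokine of leukocytes, had 2, 0 and 0 counts in the 2-month, 4, 6 and 14 in the 12-month, and 1, 3 and 2 in the 24-month libraries. Clcf1, of the same family, had 0, 0 and 0 counts in the 2-month, 4, 12 and 1 in the 12-month, and 0, 2 and 2 in the 24-month libraries. Saa3, an acute phase gene, had 1, 0 and 0 counts in the 2-month, 11, 6 and 11 in the 12-month, and 1, 1 and 4 in the 24-month libraries. Of the 8 neutrophil markers, summed over the 3 libraries of an age, S100a8 had 0, 2 and 41 counts at 2, 12 and 24 months, S100a9 0, 4 and 38, and Ngp 0, 0 and 44. Mmp8 had 0, 5 and 9 counts, Cxcr2 0, 6 and 5, Ly6g 0, 0 and 1, and Retnlg 0, 0 and 1. Csf3r, which monocytes also carry, had 33, 129 and 184.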
